A study of Mus musculus with 22 samples.

Results

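Newborn brains of PWS-IC mice and of PWS-cr mice were each compared with their own wild-type littermates, and the effects of genotype in these Prader-Willi syndrome models were then set against each other gene by gene. For each gene the PWS-cr effect was subtracted from the PWS-IC effect and the difference itself was tested, so that a gene called in one model and missed in the other was not taken to differ for that reason alone. Of 22 labelled libraries, 20 have a column of counts, and 18 entered the comparison: 3 PWS-IC and 4 wild-type littermates from 2 litters, and 6 PWS-cr and 5 wild-type littermates from 4 litters. The other 2, labelled 1_3_IC and 1_7_IC, were left out because of their counts of *Snrpn*, a gene that PWS-IC mice should lack, so the libraries were selected on a gene of the PWS interval and the loss of that interval's paternal genes in PWS-IC is a description here and not independent evidence. *Snrpn* stood at 4.94 to 7.76 CPM (counts scaled to a fixed library total, before scaling between libraries) in the 3 PWS-IC libraries that were kept and at 241 to 282 CPM in the 4 wild-type libraries of that series. Of *Snrpn* and the Y-linked *Eif2s3y*, 1_3_IC (labelled PWS-IC, female) had 369 and 65.0 CPM, and 1_7_IC (labelled wild type, male) had 5.68 and 0.149 CPM.

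PWS-IC pups are heterozygous for a deletion of the imprinting centre on the chromosome inherited from the father, and PWS-cr pups are heterozygous for a paternal deletion of the critical interval, which contains *Ipw* and the small nucleolar RNAs of *Snord116* (the line B6(Cg)-Snord116tm1Uta/J). All pups were taken on the morning after birth (postnatal day 0), and RNA of the whole brain was selected for polyadenylated transcripts and sequenced without strand information. Each series has its own wild types, and the 2 series share no litter, so a difference between colonies, sequencing series and wild-type background cannot be told apart from one another. The 3 PWS-IC pups were all female and 3 of their 4 wild-type littermates male, while 3 of 6 PWS-cr pups and 3 of their 5 wild-type littermates were male. One litter of the PWS-cr series holds a single library in the fit, 2_2_Cr, and so adds nothing to the genotype effect. Each library is the brain of 1 pup, and the p-values measure the spread between pups within litters. Total counts were 51675251 to 62103143 in PWS-IC and 50924227 to 58727396 in their wild-type littermates, and 45796030 to 54879097 in PWS-cr and 47113084 to 55562076 in their wild-type littermates.

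The genes of this domain are imprinted, which means that the copy inherited from one parent is read and the other is kept silent. The imprinting centre lies at the start of *Snrpn* and keeps the paternal copies of *Snrpn*, *Ndn*, *Magel2*, *Mkrn3*, *Peg12* and many noncoding transcripts active. From the same region a very long noncoding transcript, *Snhg14*, runs across the *Snord116* and *Snord115* small nucleolar RNA genes and in neurons on into *Ube3a* on the opposite strand, and *Ube3a* itself is read mainly from the maternal chromosome in neurons.

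The promoter windows of the 5 paternally expressed coding genes are printed because all were lost together in one model and only *Ndn* was called in the other. Each holds 250 bases before and 50 bases after a RefSeq transcription start on chromosome 7 of GRCm38.p6, written 5′ to 3′ on the strand of the gene, with CG dinucleotides, the sites that DNA methylation uses, in capitals. *Snrpn* has 4 annotated windows, and the one nearest to its coding exons is shown.
Snrpn: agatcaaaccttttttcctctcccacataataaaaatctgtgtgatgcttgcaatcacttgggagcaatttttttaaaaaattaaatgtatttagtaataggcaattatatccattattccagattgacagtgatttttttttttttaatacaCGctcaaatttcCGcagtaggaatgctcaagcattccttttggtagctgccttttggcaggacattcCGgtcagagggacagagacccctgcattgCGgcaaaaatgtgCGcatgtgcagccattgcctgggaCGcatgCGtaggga
Ndn: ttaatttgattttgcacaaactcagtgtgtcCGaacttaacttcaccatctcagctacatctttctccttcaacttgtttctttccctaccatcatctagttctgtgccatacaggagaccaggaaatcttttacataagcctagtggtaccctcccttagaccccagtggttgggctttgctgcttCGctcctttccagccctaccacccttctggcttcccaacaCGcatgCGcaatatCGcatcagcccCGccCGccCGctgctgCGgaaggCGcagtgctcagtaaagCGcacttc
Magel2: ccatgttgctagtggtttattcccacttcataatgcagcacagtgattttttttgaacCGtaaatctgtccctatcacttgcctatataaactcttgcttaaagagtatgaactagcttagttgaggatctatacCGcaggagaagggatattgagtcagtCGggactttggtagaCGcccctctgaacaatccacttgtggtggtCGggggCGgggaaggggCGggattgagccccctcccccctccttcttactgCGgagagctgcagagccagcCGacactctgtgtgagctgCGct
Mkrn3: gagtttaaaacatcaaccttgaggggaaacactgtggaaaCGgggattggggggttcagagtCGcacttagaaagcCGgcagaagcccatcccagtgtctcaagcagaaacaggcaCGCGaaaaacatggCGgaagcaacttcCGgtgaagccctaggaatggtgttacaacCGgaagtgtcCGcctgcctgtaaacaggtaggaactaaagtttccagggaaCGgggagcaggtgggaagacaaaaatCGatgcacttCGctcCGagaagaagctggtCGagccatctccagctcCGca
Peg12: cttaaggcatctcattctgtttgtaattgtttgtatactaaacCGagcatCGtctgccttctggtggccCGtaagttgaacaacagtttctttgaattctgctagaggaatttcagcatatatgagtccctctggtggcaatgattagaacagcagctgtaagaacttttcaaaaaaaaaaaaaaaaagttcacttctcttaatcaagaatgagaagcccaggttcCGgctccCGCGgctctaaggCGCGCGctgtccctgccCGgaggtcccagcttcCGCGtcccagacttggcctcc
The windows lie at chr7:60005150-60005449 for *Snrpn* (minus strand), chr7:62348027-62348326 for *Ndn* (plus), chr7:62376729-62377028 for *Magel2* (plus), chr7:62420104-62420403 for *Mkrn3* (minus) and chr7:62464461-62464760 for *Peg12* (minus). They hold 7, 11, 10, 15 and 12 CG dinucleotides in that order of genes, against a median of 7 over 32851 mouse promoter windows, and 52.1%, 41.4%, 43.5%, 34.6% and 39.6% of all windows hold at least as many. The 8 letters CGCATGCG, which read the same on both strands and form the core of the motif known for the factor NRF1, occur in the windows of *Snrpn* and *Ndn* and in 1.87% of all windows. This motif was chosen after the sequences were seen, and a match is a description of the letters only.

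The difference between the models was called for 43 of 23574 tested genes (0.182%), by edgeR's quasi-likelihood test with a term for litter, a separate genotype effect for each series and an adjusted p under 0.05. Of these, 30 lay in the PWS interval, the stretch of chromosome 7 between *Ube3a* and *Peg12* (59228750 to 62464510 in mm10), and 13 lay elsewhere. These counts and those of the PWS-IC calls include *Snrpn*, which chose the libraries, and without it there were 42 called differences, 29 of them in the interval, and 109 PWS-IC calls. The PWS-IC effect was below the PWS-cr effect for 33 of the 43 genes and above it for 10. In PWS-IC 110 genes were called (0.467% of those tested), 55 lower (0.233%) and 55 higher, and in PWS-cr 6 genes were called (0.0255%), all of them in the interval. With all 20 libraries as labelled, 0 differences were called (1123 genes at an unadjusted p under 0.05). In the 18 libraries, at an unadjusted p under 0.05 the difference held 8.16% of all genes and the PWS-cr effect 2.21%.

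By class, 6 genes were called in both models, 4 of them in opposite directions and 2 in the same direction, and 104 genes were called in PWS-IC without a call in PWS-cr. The count called in PWS-cr and not in PWS-IC was 0 with edgeR, where 521 genes had an unadjusted p under 0.05 in PWS-cr, and DESeq2 called the same 6 genes in PWS-cr. Each of the 43 called differences belonged to a gene called in PWS-IC, 6 of which were called in both models. Of the 104 genes called in PWS-IC and not in PWS-cr, the difference was called for 37, so for the other 67 it was not shown that the models differ. The called difference nearest to the threshold had an adjusted p of 0.0413 (*Ccl28*), and the nearest one not called had 0.0592 (*Cebpd*). The smallest called difference was 0.66 on the log2 scale (*Per1*, SE 0.114), and the median standard error of the difference was 0.183 over all genes tested. How small a difference could be called depended on the standard error of each gene, so small differences may have been missed in many genes.

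**Figure D1:**
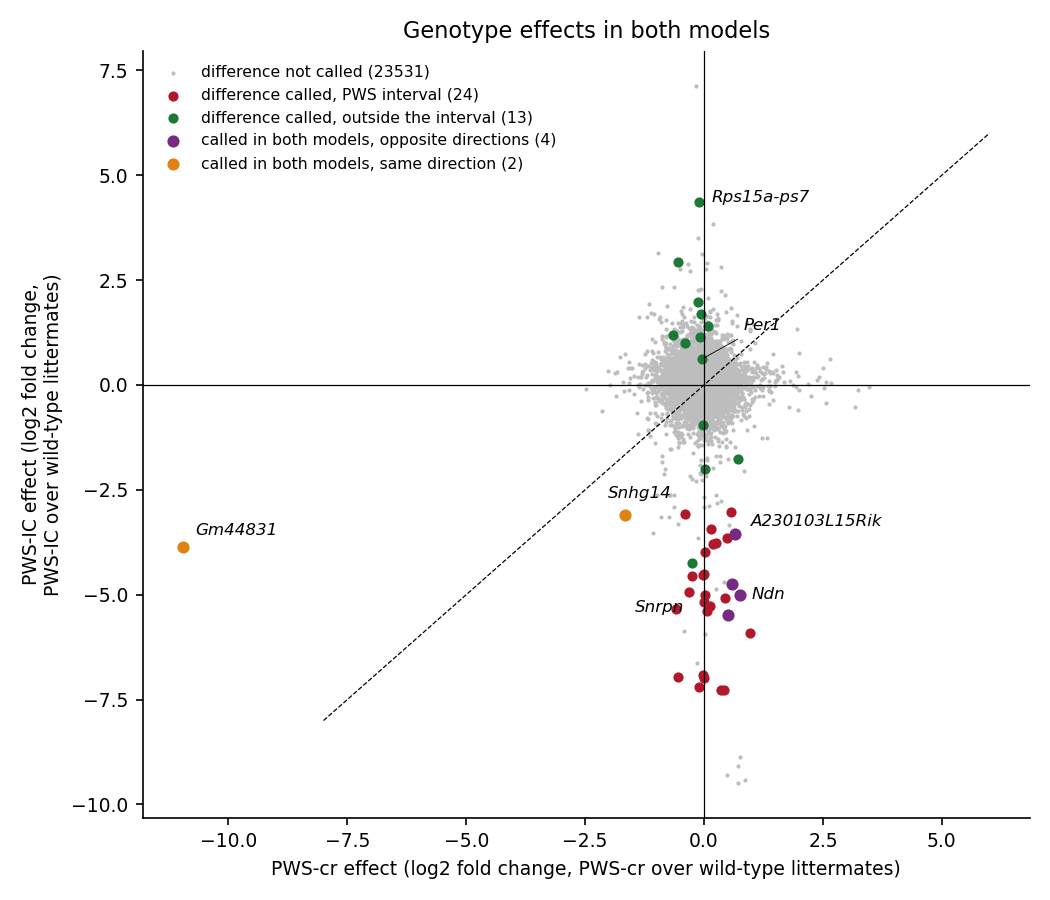
Effect of genotype on each of 23574 genes as log2 fold change over wild-type littermates, PWS-IC on the vertical axis and PWS-cr on the horizontal axis; the dashed line marks equal effects. The 24 interval genes in red stand low on the vertical axis near 0 on the horizontal one, the 4 purple genes lie to the right of 0, and *Gm44831* lies far to the left, where its position depends on the fit's prior count because PWS-cr libraries held 1 count of it in all, as do the positions of the genes with 0 counts in PWS-IC.

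*Ndn* (Necdin), which encodes a protein of the MAGE family that acts in neuronal differentiation and survival, changed in opposite directions in the models. It stood at 16.1, 16.4 and 14.3 CPM in the PWS-IC libraries, against 507, 546, 505 and 475 CPM in their wild-type littermates (CPM here and below are scaled between libraries by the TMM method). In PWS-cr libraries it ranged between 390 and 482 CPM (median 447), against 211, 258, 260, 311 and 357 CPM in their wild-type littermates. The PWS-IC libraries all lay far below their wild types, and the PWS-cr libraries all lay above theirs. The log2 fold change was −5.01 (SE 0.115) in PWS-IC and 0.75 (SE 0.0848, adjusted p = 0.00146) in PWS-cr, a difference of −5.76 (SE 0.137, adjusted p = 1.93e-13). The rise in PWS-cr was called on leaving out any single library, at 0.56 to 0.85 on the log2 scale, and was not called with the PWS-cr series fitted alone (0.75, adjusted p = 0.062) or with all 20 libraries as labelled (0.74, adjusted p = 1). The wild types of the PWS-cr series stood at 279 ± 56.0 CPM (SD, n = 5) and those of the PWS-IC series at 508 ± 29.3 CPM (SD, n = 4), so the level in PWS-cr mice lay between the levels of the 2 sets of wild types.

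The other 3 genes with opposite effects were unannotated transcripts on the minus strand at the *Ube3a* end of the interval. *Gm44562* (chromosome 7, 59258855 to 59260201) and *Gm44559* (59262923 to 59263934) lie within the span of *Ube3a*, and *A230103L15Rik* (59327318 to 59331189) lies within *Snhg14* just beyond the end of *Ube3a*. All 3 lie on the strand of *Snhg14*, and since the reads carry no strand, reads from overlapping transcripts on either strand cannot be told apart.

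*Gm44562* stood at 0.324, 0.290 and 0.414 CPM in PWS-IC, against 13.2, 16.0, 15.6 and 16.6 CPM in their wild-type littermates, and at 18.7 to 26.3 CPM (median 23.0) in PWS-cr, against 16.3, 16.8, 15.4, 16.8 and 17.6 CPM in theirs. *Gm44559* stood at 0.477, 0.425 and 0.383 CPM in PWS-IC, against 11.2, 11.5, 12.1 and 11.5 CPM, and at 13.6 to 17.8 CPM (median 16.2) in PWS-cr, against 10.9, 12.2, 9.63, 10.6 and 11.4 CPM. *A230103L15Rik*, the most abundant of the 3, stood at 3.09, 3.15 and 4.16 CPM in PWS-IC, against 31.2, 46.4, 43.3 and 40.6 CPM, and at 71.3 to 91.2 CPM (median 85.0) in PWS-cr, against 52.4, 56.1, 50.8, 55.5 and 60.9 CPM. For all 3 genes the PWS-IC libraries lay below and the PWS-cr libraries above all of their own wild types. The log2 fold changes in PWS-cr were 0.50 (*Gm44562*, SE 0.0798, adjusted p = 0.0455), 0.59 (*Gm44559*, SE 0.0789, adjusted p = 0.00864) and 0.64 (*A230103L15Rik*, SE 0.101, adjusted p = 0.0455), and in PWS-IC −5.48, −4.76 and −3.56. The differences of −5.99 (SE 0.159), −5.35 (SE 0.149) and −4.21 (SE 0.170) were all called, with adjusted p-values of 5.4e-13, 7.27e-13 and 1.28e-10.

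The calls in PWS-cr of these transcripts were close to the threshold. *Gm44562* was lost on leaving out any of 16 of the 18 libraries and *A230103L15Rik* on leaving out any of 14, each with adjusted p-values of up to 1, while *Gm44559* was lost without 1_3_Cr, 3_5_Cr or 4_3_Cr (adjusted p of up to 0.271). With the PWS-cr series fitted alone, *Gm44562* (adjusted p = 0.115) and *Gm44559* (0.097) were not called and *A230103L15Rik* was (0.013). Their log2 fold changes in PWS-cr on leaving out 1 library stayed between 0.45 and 0.74 throughout. Beside them, *Gm44560* and *Gm44830* on the same stretch had PWS-cr values of 0.44 (SE 0.116) and 0.56 (SE 0.133) that were not called, and *9330162G02Rik*, which reaches past the end of *Ube3a* that lies away from *Snhg14*, had 0.14 (SE 0.209). In PWS-IC the log2 fold changes of *Gm44560*, *Gm44830* and *9330162G02Rik* were −5.08, −3.04 and −3.43, all called.

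**Figure D2:**
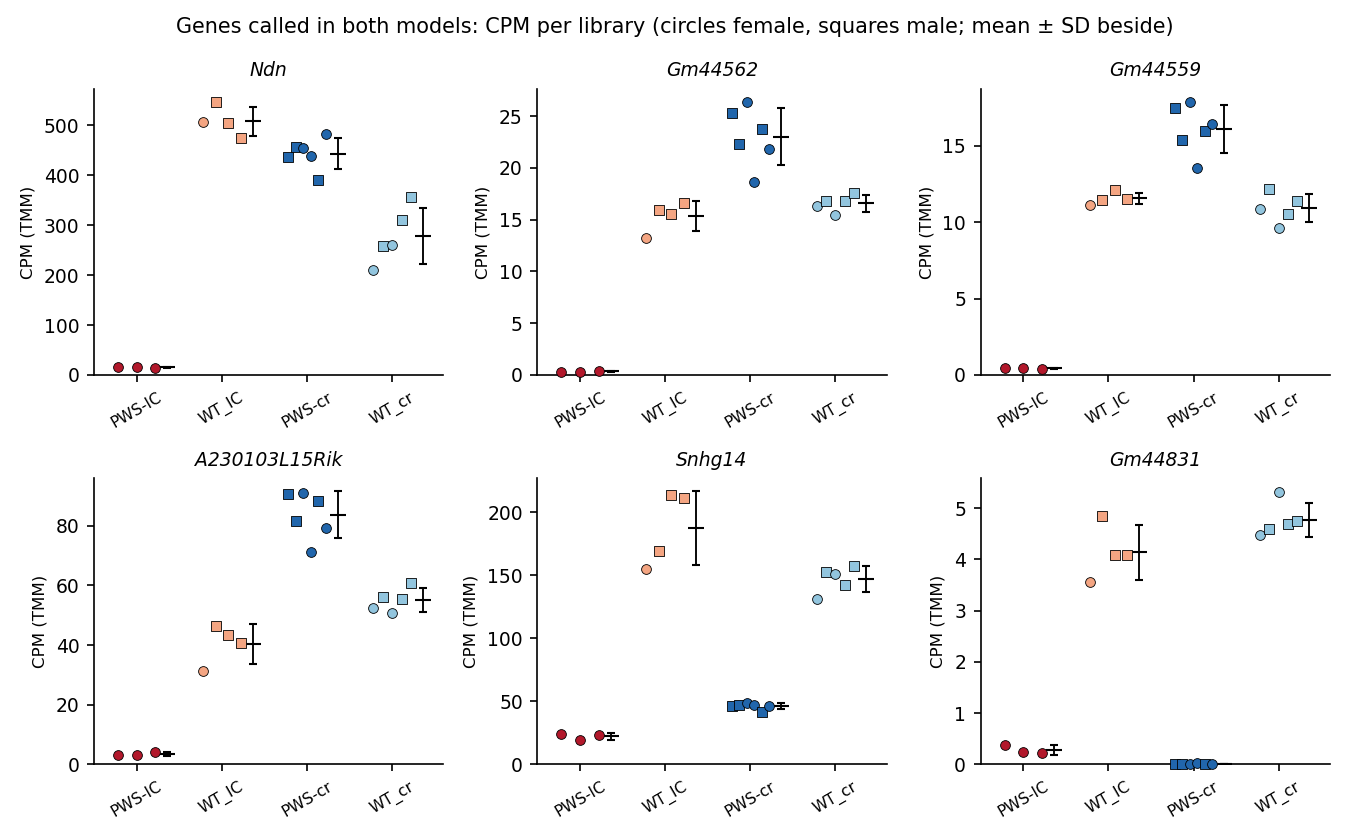
CPM after TMM scaling of the 6 genes called in both models, for each library of PWS-IC, its wild-type littermates (WT_IC), PWS-cr and its wild-type littermates (WT_cr), with the mean and SD beside the points. *Ndn*, *Gm44562*, *Gm44559* and *A230103L15Rik* are near 0 in PWS-IC and above their wild types in PWS-cr, while *Snhg14* and *Gm44831* are low in both models.

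*Snhg14*, the host transcript of the small nucleolar RNAs, fell in both models, and further in PWS-IC. The study describes it as the host of the critical interval, so part of its span is itself deleted in PWS-cr. It stood at 24.3, 19.04 and 23.0 CPM in PWS-IC, against 155, 169, 214 and 211 CPM in their wild-type littermates. In PWS-cr it ranged between 41.5 and 48.6 CPM (median 46.7), against 131, 152, 151, 142 and 157 CPM in their wild-type littermates. No mutant library reached any wild-type library in either series. The level was 11.7% of wild type in PWS-IC and 31.5% of wild type in PWS-cr, which corresponds to log2 fold changes of −3.09 (SE 0.115) and −1.67 (SE 0.0959) and to a difference of −1.43 (SE 0.142, adjusted p = 3.37e-05). The difference was called on leaving out any single library.

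*Gm44831* (59627688 to 59630676, minus strand), a predicted gene within the span of *Snhg14*, was the 1 interval gene that fell further in PWS-cr. The study places it in *Ipw*, inside the critical interval, which PWS-cr pups lack on the paternal chromosome. Its near absence in PWS-cr therefore concerns deleted sequence, unlike its fall in PWS-IC. It stood at 0.381, 0.232 and 0.223 CPM in PWS-IC, or 12 to 20 counts per library, against 3.55, 4.85, 4.08 and 4.08 CPM in their wild-type littermates. In PWS-cr 5 libraries held 0 counts and 2_2_Cr held 1, against 4.48, 4.59, 5.32, 4.70 and 4.75 CPM in their wild-type littermates. From counts pooled over libraries and scaled by library totals, wild-type littermates had 1480 times as much as PWS-cr mice (95% exact interval 265 to 58400, which covers counting error only), whereas PWS-IC mice kept 6.85% of the wild-type level (log2 fold change −3.87, SE 0.205). The difference was called (adjusted p = 0.000131), and its fitted size of 7.08 depends on the fit's prior count and gives no bound.

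The remaining 24 called interval genes were lost in PWS-IC and not called in PWS-cr. In 4 of them PWS-IC libraries held 0 counts, in 1 they held 2, and over the other 19 the PWS-IC level was 0.674% to 12.2% of wild type (median 3.25%), a log2 fold change of −7.21 to −3.04. For the same 19 genes the PWS-cr effect ranged between −0.60 and 0.56 with a median of 0.01, against a median of 0.00 over all genes tested. Of the 24 genes, 5 had an unadjusted p under 0.05 in PWS-cr (2.21% of all genes did). The loss in PWS-IC follows the choice of libraries by *Snrpn*. The PWS-cr fold changes come from the libraries of that series, but their p-values share an estimate of spread with all libraries of the fit.

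**Figure D3:**
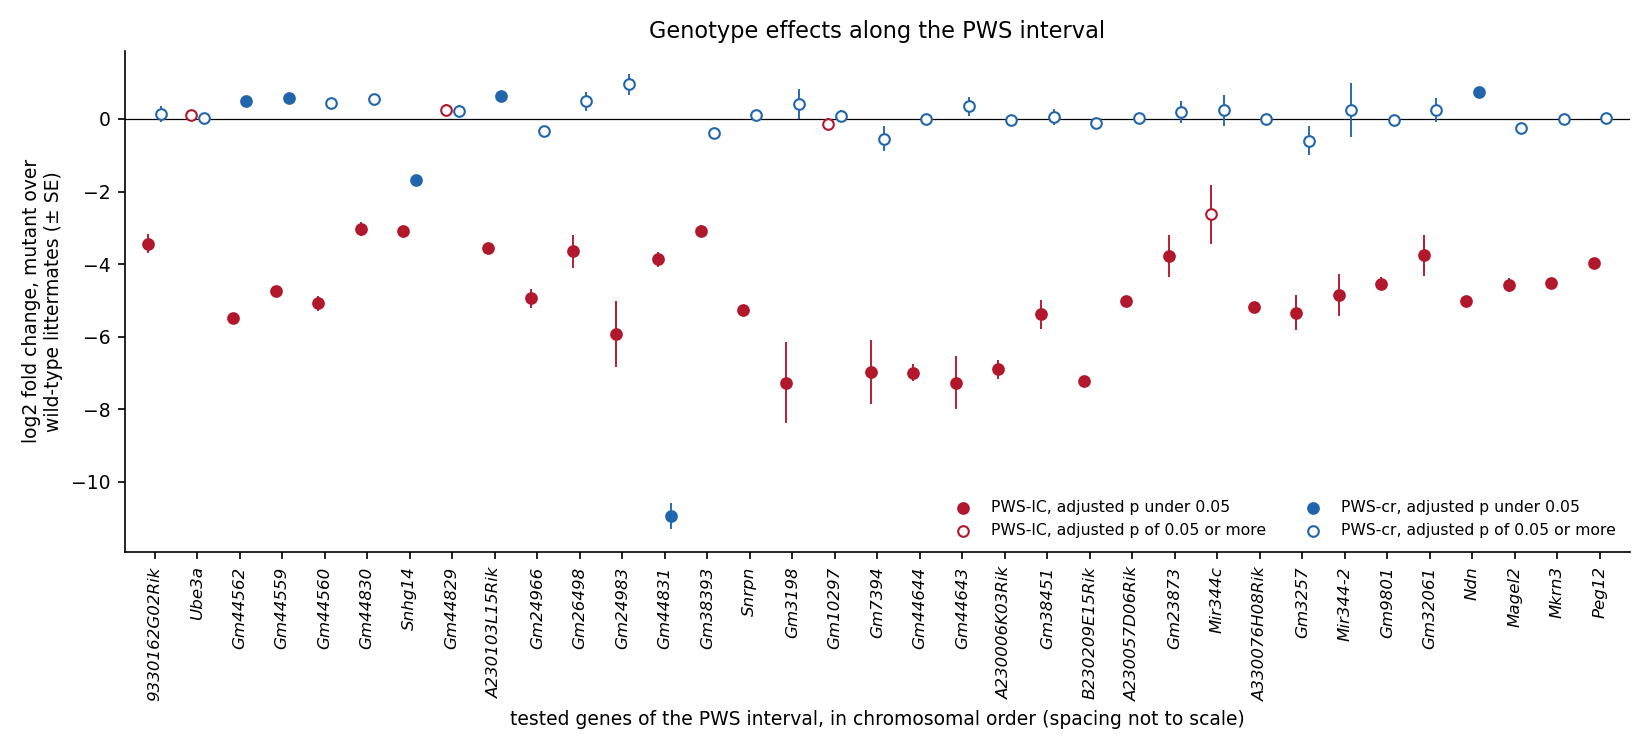
Log2 fold change over wild-type littermates (± SE) of the 35 tested genes of the PWS interval in chromosomal order, PWS-IC in red and PWS-cr in blue, with filled points for an adjusted p under 0.05. In PWS-IC 31 genes were lower, and in PWS-cr 6 were called, *Snhg14* and *Gm44831* lower and *Ndn*, *Gm44562*, *Gm44559* and *A230103L15Rik* higher; the value of *Gm44831* in PWS-cr depends on the fit's prior count.

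*Snrpn*, *Magel2*, *Mkrn3* and *Peg12* of this class are known as paternally expressed coding genes, and *Gm38393*, described further on, is also annotated as coding. *Snrpn*, whose product belongs to the splicing machinery, stood at 8.10, 4.93 and 6.71 CPM in PWS-IC, against 285, 253, 255 and 244 CPM in their wild-type littermates, and at 259 to 314 CPM (median 272) in PWS-cr, against 245, 243, 279, 265 and 293 CPM in theirs. *Magel2*, a MAGE protein that acts with a ubiquitin ligase in protein trafficking, stood at 1.51, 1.66 and 1.74 CPM in PWS-IC, against 27.3, 40.7, 42.9 and 40.0 CPM, and at 34.5 to 50.6 CPM (median 43.2) in PWS-cr, against 44.6, 43.4, 60.9, 50.3 and 66.8 CPM. *Mkrn3*, a makorin ring finger protein known as a brake on puberty, stood at 0.953, 0.831 and 0.861 CPM in PWS-IC, against 22.9, 19.2, 19.6 and 20.2 CPM, and at 16.2 to 19.2 CPM (median 17.4) in PWS-cr, against 16.5, 16.8, 18.6, 18.4 and 20.6 CPM. In PWS-cr these 3 genes overlapped their wild types, and in PWS-IC none did. For *Snrpn* the separation in PWS-IC was fixed by the choice of libraries, and for *Magel2* and *Mkrn3* it is a description only.

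*Peg12*, the last gene of the interval, stood at 0.153, 0.251 and 0.207 CPM in PWS-IC, against 3.10, 3.64, 3.20 and 3.08 CPM, and at 2.83 to 3.75 CPM (median 3.47) in PWS-cr, against 3.45, 3.42, 3.59, 3.33 and 3.65 CPM. The differences between the models were −4.31 (SE 0.232) for *Magel2*, −4.51 (SE 0.125) for *Mkrn3* and −4.00 (SE 0.194) for *Peg12*, with adjusted p-values of 6.78e-09, 7.27e-13 and 1.53e-09, and no p is given for *Snrpn* because it chose the libraries. The p-values of *Magel2*, *Mkrn3* and *Peg12* are not independent of that choice. In PWS-cr the log2 fold changes were 0.12 (*Snrpn*, SE 0.0858), −0.26 (*Magel2*, SE 0.134), −0.00 (*Mkrn3*, SE 0.0708) and 0.02 (*Peg12*, SE 0.103), each with an adjusted p of 1 over all genes. *Gm38393* was not called in PWS-cr either.

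**Figure D4:**
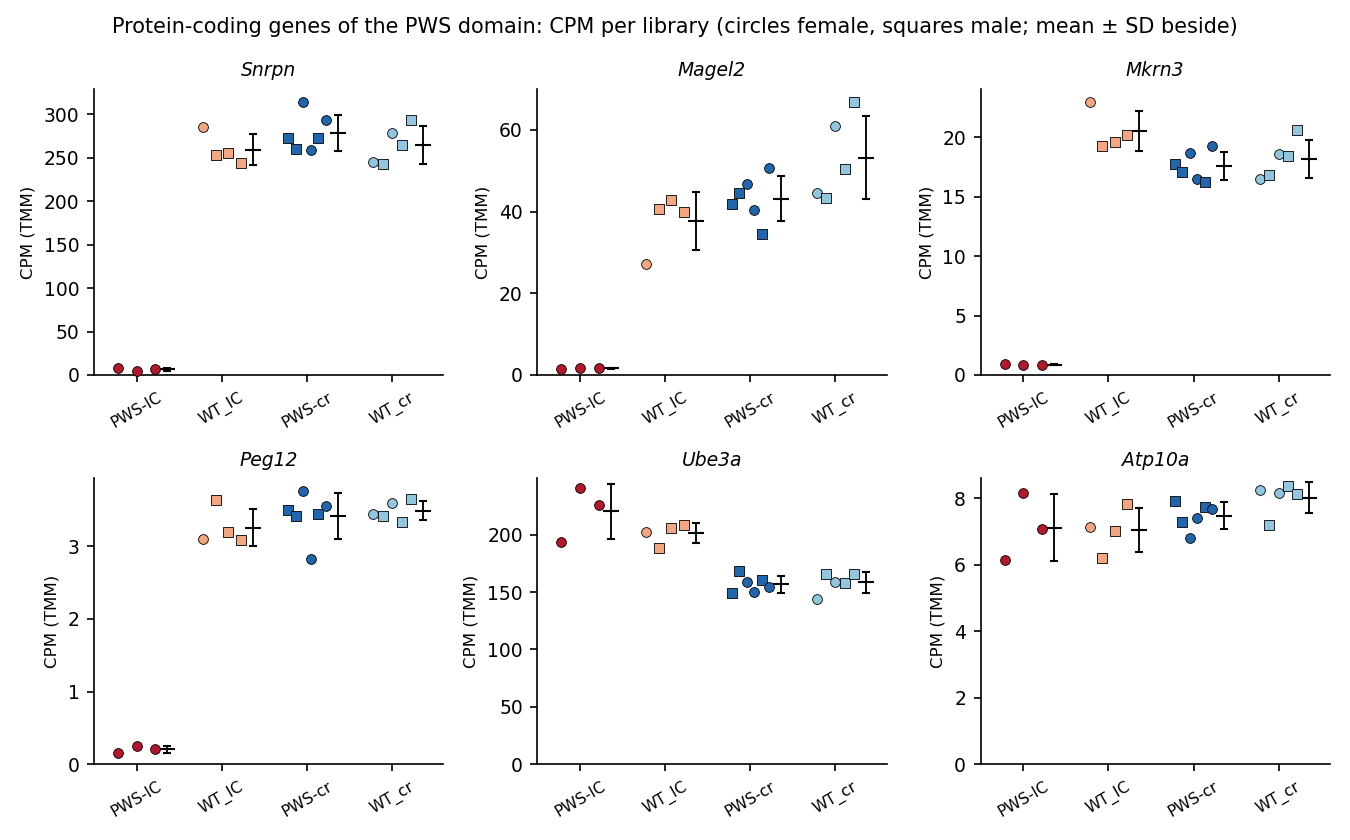
CPM after TMM scaling of 4 paternally expressed coding genes and the maternally expressed *Ube3a* and *Atp10a* in each library, grouped as PWS-IC, WT_IC, PWS-cr and WT_cr, with mean and SD. The 4 paternally expressed genes are near 0 in PWS-IC and overlap their wild types in PWS-cr, and *Ube3a* and *Atp10a* overlap their wild types in both models.

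Among the others were long noncoding transcripts between *Snrpn* and *Ndn*. The deepest loss among those with more than 3 counts in PWS-IC was that of *B230209E15Rik* (61529871 to 61615327), which stood at 0.153, 0.135 and 0.159 CPM in PWS-IC, against 22.9, 25.0, 21.8 and 22.1 CPM in their wild-type littermates, and at 19.8 to 27.8 CPM (median 23.5) in PWS-cr, against 26.1, 22.7, 21.6, 27.0 and 28.5 CPM. It kept 0.674% of the wild-type level in PWS-IC, and its difference of −7.10 (SE 0.144, adjusted p = 3e-14) had the lowest adjusted p of the genes tested. This loss too follows the choice of libraries by *Snrpn*, and with all 20 libraries as labelled the difference was −2.82 and not called (adjusted p = 0.836). *A230006K03Rik*, with 1 to 3 counts per PWS-IC library against 220 to 347 counts in their wild-type littermates, had a difference of −6.88 (SE 0.299), *A330076H08Rik* of −5.19 (SE 0.151) and *A230057D06Rik* of −5.02 (SE 0.160). None of these 4 was called in PWS-cr, where their log2 fold changes lay between −0.11 and 0.01.

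Not every transcript was lost to the same degree in PWS-IC. *Gm38393*, whose span ends just short of the printed *Snrpn* window, stood at 4.21, 3.69 and 3.63 CPM in PWS-IC, against 27.1, 24.2, 37.3 and 39.0 CPM in their wild-type littermates, or 11.9% of wild type, and *Gm44830* kept 12.2%. The span of *Gm38393* (59974149 to 60005064, minus strand) overlaps those of *Snrpn* and *Snhg14* on the same strand, so its counts cannot be assigned to a separate gene with certainty. *Gm38393* had a log2 fold change of −0.40 (SE 0.132) in PWS-cr, at 13.03 to 14.9 CPM (median 13.5), against 14.8, 18.3, 22.5, 17.3 and 21.4 CPM, and was not called there. *9330162G02Rik* varied among PWS-IC libraries, at 29.9, 9.30 and 10.3 CPM, against 156, 173, 189 and 170 CPM.

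Several genes rested on few counts. *Gm44643*, *Gm24983*, *Gm3198* and *Gm7394* had 0 counts in every PWS-IC library, against 74, 29, 58 and 47 counts pooled over their wild-type littermates, which makes them at least 18.8-fold, 7.35-fold, 14.7-fold and 11.9-fold lower with a floor of 3 counts over the group. *Gm3198* and *Gm7394*, which are processed pseudogenes, also had 0 counts in both wild-type libraries of litter 1 of that series, so their groups overlap and litter 4 alone carries the contrast. *Gm24983*, *Gm24966* and *Gm26498* are annotated as small nucleolar RNAs between 59344073 and 59458883, within *Snhg14*. In PWS-cr *Gm24983* had a log2 fold change of 0.96 (SE 0.296), *Gm26498* of 0.48 (SE 0.261) and *Gm24966* of −0.33 (SE 0.147), with no call for any of them. The call of *Gm3257* in the difference was lost without 1_3_Cr (adjusted p = 0.0512), and those of *Gm32061*, *Gm23873*, *Gm3198* and *Gm7394* on leaving out any of 4, 5, 5 and 6 libraries.

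Of the 35 tested genes in the interval, 4 were not called in PWS-IC: *Ube3a*, *Gm44829*, *Gm10297* and the microRNA gene *Mir344c*. Another, *Mir344-2*, was called in PWS-IC and its difference was not (adjusted p = 0.0987). It passed the filter on low counts only through the wild types of the PWS-IC series (18 to 29 counts, against 0 to 3 in every other library), so its PWS-IC call was favoured by the filter. It had 2 counts pooled over PWS-IC libraries and 86 over their wild-type littermates, a ratio of 32.7 in favour of the wild types (95% exact interval 8.78 to 274), while in the PWS-cr series its level was 0.0185 to 0.0561 CPM in PWS-cr and 0.0222 CPM on average in their wild-type littermates. *Ube3a*, the ubiquitin ligase that is lost in Angelman syndrome, stood at 194, 241 and 226 CPM in PWS-IC, against 202, 189, 206 and 208 CPM in their wild-type littermates. In PWS-cr it ranged between 149 and 168 CPM (median 156), against 144, 166, 159, 158 and 166 CPM. The groups overlapped in both series. The log2 fold change was 0.10 (SE 0.0587, adjusted p = 0.469) in PWS-IC and 0.02 (SE 0.0530) in PWS-cr. The difference of 0.08 (SE 0.0791) had a 95% interval of −0.09 to 0.24. By quantitative PCR the study reports *Ube3a* as overexpressed in PWS-IC brain at birth. Since the reads carry no strand, those of *Ube3a* cannot be told apart from those of overlapping opposite-strand transcripts such as *9330162G02Rik*, which fell in PWS-IC. Whether that fall changed the count of *Ube3a* was not tested. *Atp10a*, a phospholipid flippase gene beyond *Ube3a* that has been described as maternally expressed, had a difference of 0.06 (SE 0.128) with an interval of −0.21 to 0.34. Of 21 tested genes that flank the interval without being imprinted, 0 were called in either model or in the difference, with a median difference of −0.07.

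Just outside the interval, *Gm44742* (59202391 to 59203802, minus strand) was lower in PWS-IC and not called in PWS-cr. It stood at 0.0381, 0.0967 and 0.255 CPM in PWS-IC, against 1.71, 3.12, 2.51 and 2.69 CPM in their wild-type littermates, and at 1.32 to 2.16 CPM (median 1.78) in PWS-cr, against 1.95, 2.69, 1.51, 2.18 and 2.82 CPM. The groups did not overlap in PWS-IC, and the difference was −3.99 (SE 0.492, adjusted p = 0.000476).

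*Per1*, which encodes a repressor of the circadian clock that also responds to glucocorticoids, was higher in PWS-IC and not in PWS-cr. It stood at 61.9, 51.5 and 54.4 CPM in PWS-IC, against 32.6, 38.1, 34.7 and 41.0 CPM in their wild-type littermates, and at 38.9 to 45.2 CPM (median 42.1) in PWS-cr, against 45.7, 42.5, 45.8, 42.6 and 39.7 CPM in theirs. Every PWS-IC library was above all of the other 15 libraries, including 1_1_IC, the one female wild type of its series, which had the lowest value of all. The log2 fold change was 0.62 (SE 0.0846, adjusted p = 0.0014) in PWS-IC and −0.05 (SE 0.0766) in PWS-cr, with a difference of 0.66 (SE 0.114, adjusted p = 0.0188). The call of the difference was lost without 1_3_Cr, 3_5_Cr, 1_10_IC, 4_3_IC or 4_5_IC (adjusted p of up to 0.195) and with sex as a term shared by both series (0.65, adjusted p = 0.103).

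*Per1* was the 1 called gene of the 22 tested clock genes (0.182% of all genes were called), whose median difference was 0.07. The next members by p-value, *Csnk1e*, *Hlf* and *Per2*, which encode a clock kinase, a clock output factor and a second period repressor, had differences of 0.18 (SE 0.0799), −0.33 (SE 0.156) and 0.26 (SE 0.153). Of 18 glucocorticoid responsive genes 1, *Per1*, was called in the difference, with a median difference of 0.26 against −0.00 over all genes tested. A positive difference was held by 16 of the 18, and 6 had an unadjusted p under 0.05 (8.16% of all genes did), though genes of a list are not independent replicates. *Nfkbia*, an inhibitor of NF-kappaB, had a PWS-IC effect of 0.42 (SE 0.0850, adjusted p = 0.0437) and a difference of 0.47 (SE 0.116, adjusted p = 0.284) that was not called, *Zbtb16* had a difference of 0.52 (SE 0.157) and *Angptl4* one of −0.76 (SE 0.238).

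Of 16 tested genes of the MAGE family and partners of *Magel2*, the 2 called were *Ndn* and *Magel2* themselves (0.182% of all genes were called). Both lie in the interval, whose loss in PWS-IC follows the choice of libraries by *Snrpn*, so the count does not describe the family. The median difference over the 16 was −0.02. *Usp7*, a deubiquitinase that works with *Magel2*, had a difference of 0.19 (SE 0.0741) and *Vps26a*, a subunit of the retromer that *Magel2* serves, one of −0.16 (SE 0.0778).

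Of the other coding genes outside the interval, *Cabp4*, *Cd300lg* and *Ccl28* were called. *Cabp4*, a calcium-binding protein of photoreceptor synapses, stood at 2.69, 2.11 and 2.47 CPM in PWS-IC, against 0.982, 1.10, 1.31 and 1.43 CPM, and at 0.869 to 1.497 CPM (median 1.23) in PWS-cr, against 1.63, 1.28, 1.54, 1.52 and 1.39 CPM, with a difference of 1.39 (SE 0.231, adjusted p = 0.0131). *Cd300lg*, a receptor-like molecule of capillary endothelium, had 15 to 22 counts in PWS-IC against 6 to 10 in their wild-type littermates, and a difference of 1.85 (SE 0.331, adjusted p = 0.0256). *Ccl28*, a chemokine of mucosal surfaces, stood at 0.648, 2.24 and 1.48 CPM in PWS-IC, against 4.38, 6.55, 4.52 and 6.03 CPM, and at 5.07 to 8.79 CPM (median 7.53) in PWS-cr, against 5.70, 4.16, 5.39, 9.23 and 8.02 CPM, with a difference of −2.02 (SE 0.380, adjusted p = 0.0413). In PWS-cr the log2 fold changes of *Cabp4* and *Cd300lg* were −0.40 (SE 0.159) and −0.65 (SE 0.218), neither of them called. Leaving out 1 library ended the call of *Cabp4* in 3 of 18 cases, of *Cd300lg* in 10 and of *Ccl28* in 11, with adjusted p-values of up to 0.154, 0.382 and 0.219. With sex as a shared term the calls of *Cabp4* (adjusted p = 0.0838), *Cd300lg* (0.0911) and *Ccl28* (0.186) were all lost, and that of *Cd300lg* was also lost with DESeq2 (0.247) and with series in place of litter (0.416), and that of *Ccl28* with the robust option (0.124) and with at least 10 counts in every library (0.0765).

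**Figure D5:**
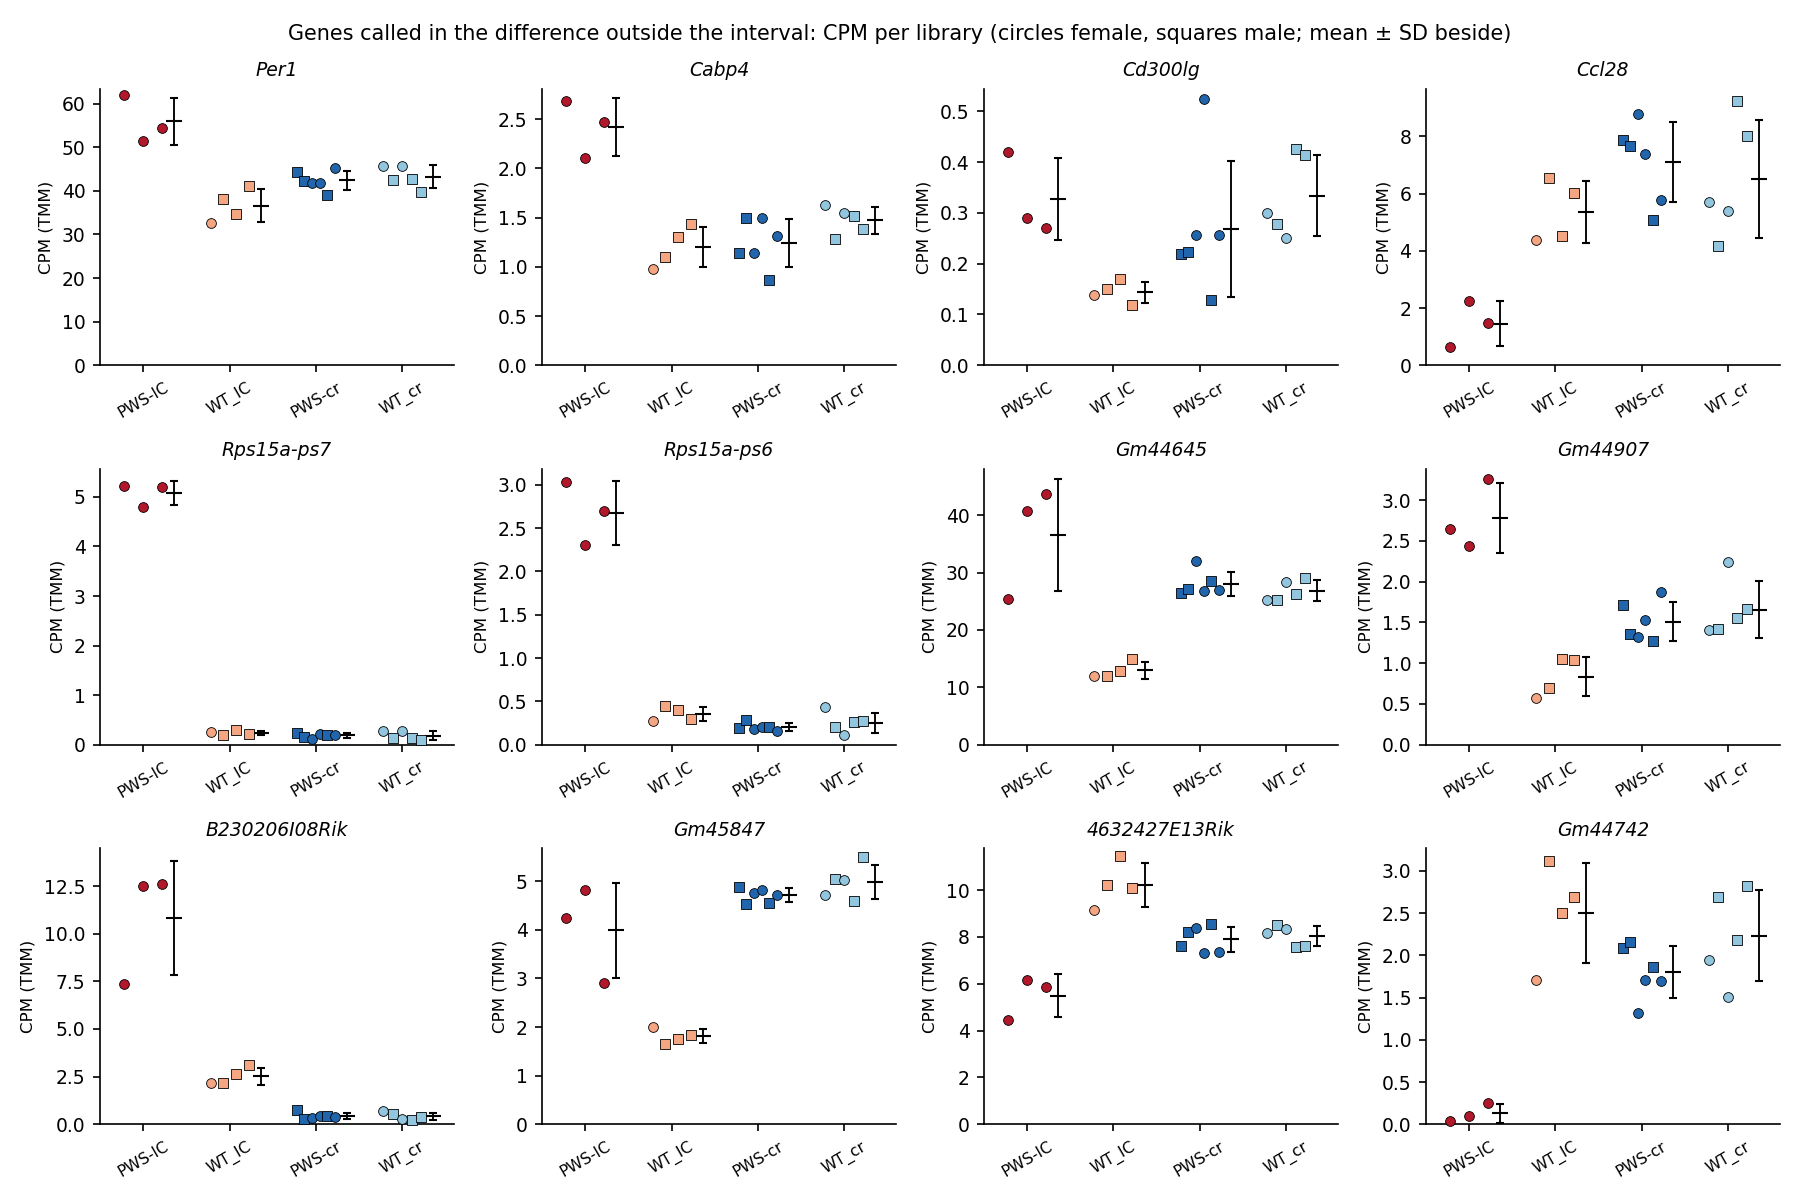
CPM after TMM scaling of the 12 autosomal genes called in the difference outside the PWS interval, for each library of PWS-IC, WT_IC, PWS-cr and WT_cr, with mean and SD. In every panel the PWS-IC libraries stand apart from their own wild types and the PWS-cr libraries overlap theirs, while in *Cd300lg*, *Gm44645*, *Gm44907*, *B230206I08Rik*, *Gm45847* and *4632427E13Rik* the wild types of the 2 series also stand apart from each other (circles female, squares male). The genes were picked by their calls in these same libraries, so the separation is a description and no further evidence.

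The 2 highest called differences outside the interval were in processed pseudogenes of *Rps15a*, a ribosomal protein gene. *Rps15a-ps7* on chromosome 2 (152185291 to 152185682) stood at 5.22, 4.79 and 5.20 CPM in PWS-IC, against 0.258, 0.205, 0.288 and 0.219 CPM in their wild-type littermates, and at 0.110 to 0.241 CPM (median 0.200) in PWS-cr, against 0.281, 0.130, 0.269, 0.129 and 0.104 CPM. *Rps15a-ps6* on chromosome 11 (6172644 to 6173036) stood at 3.03, 2.30 and 2.69 CPM in PWS-IC, against 0.276, 0.448, 0.407 and 0.298 CPM, and at 0.157 to 0.283 CPM (median 0.200) in PWS-cr, against 0.431, 0.204, 0.108, 0.259 and 0.269 CPM. All 3 PWS-IC libraries of either pseudogene were above all other libraries, with PWS-IC effects of 4.36 and 2.92. The differences between the models were 4.46 (SE 0.398, adjusted p = 8.02e-06) and 3.46 (SE 0.372, adjusted p = 8.52e-05). Pseudogenes share reads with their parent gene, and reads with several equal matches were placed in random order by the authors' alignment, so these counts cannot be assigned to a locus with certainty.

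Among the calls outside the interval, chromosome 7 recurred. It held 7.70% of the genes tested there, against 20 of the 79 genes called in PWS-IC (25.3%) and 6 of the 13 called in the difference (46.2%), with start positions of the 20 between 18.99 and 123 Mb. Besides *Gm44742*, the 5 called in the difference were *Gm44645*, *Gm44907*, *B230206I08Rik*, *4632427E13Rik* and *Gm45847*, all unannotated or long noncoding transcripts between 73422250 and 123068305.

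*Gm44645* stood at 25.4, 40.8 and 43.6 CPM in PWS-IC, against 12.03, 11.9, 12.9 and 15 CPM in their wild-type littermates, and at 26.5 to 32.0 CPM (median 27.0) in PWS-cr, against 25.2, 25.3, 28.4, 26.3 and 29.0 CPM, with a difference of 1.32 (SE 0.139, adjusted p = 7.24e-05). *B230206I08Rik* stood at 7.36, 12.5 and 12.6 CPM in PWS-IC, against 2.17, 2.15, 2.63 and 3.12 CPM, and at 0.263 to 0.723 CPM (median 0.383) in PWS-cr, against 0.674, 0.520, 0.252, 0.203 and 0.394 CPM, with a difference of 2.12 (SE 0.378, adjusted p = 0.0254). For *Gm45847* the levels were 4.25, 4.81 and 2.90 CPM in PWS-IC, against 2.00, 1.66, 1.75 and 1.83 CPM, and 4.53 to 4.88 CPM (median 4.74) in PWS-cr, against 4.72, 5.06, 5.03, 4.59 and 5.49 CPM (difference 1.23, SE 0.195, adjusted p = 0.00847). In these 3 transcripts the PWS-IC libraries lay above their own wild types, and the wild types of the PWS-cr series lay above those of the PWS-IC series for *Gm44645* and *Gm45847* and below them for *B230206I08Rik*.

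*Gm44907* had a difference of 1.76 (SE 0.279, adjusted p = 0.00815), at 2.78 ± 0.423 CPM in PWS-IC and 0.836 ± 0.244 CPM in their wild-type littermates (SD, n = 3 and n = 4). *4632427E13Rik* was the 1 transcript of these 5 that fell in PWS-IC, to 4.44, 6.15 and 5.88 CPM, against 9.15, 10.2, 11.4 and 10.1 CPM, while PWS-cr libraries had 7.33 to 8.54 CPM (median 7.92), against 8.19, 8.49, 8.34, 7.57 and 7.63 CPM, for a difference of −0.94 (SE 0.116, adjusted p = 0.000505). With sex as a shared term the calls of *Gm44907* (adjusted p = 0.0688), *Gm45847* (0.0555) and *B230206I08Rik* (0.124) were lost, and those of *Gm44645* and *4632427E13Rik* were not. Without 1_10_IC *Gm44907* (adjusted p = 0.111) and *Gm45847* (0.0839) were lost as well, and *B230206I08Rik* was lost in 9 of 18 cases.

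On the X chromosome, counted apart because sex and genotype are hardly separated in the PWS-IC series, *F630028O10Rik* had a difference of −2.48 (SE 0.449, adjusted p = 0.0275) on 3 to 13 counts in PWS-IC against 21 to 37 counts in their wild-type littermates, and the call was lost on leaving out any of 8 libraries, with sex as a shared term (adjusted p = 0.103) and with series in place of litter (0.0635).

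The 66 genes called in PWS-IC outside the interval for which the difference was not called had a median PWS-IC effect of 0.87 on the log2 scale, a median PWS-cr effect of −0.00 and a median difference of 0.76. Taking all 79 genes called in PWS-IC outside the interval, 40 had a PWS-cr effect of the same sign (50.6%, against 52.0% of all genes tested there), and 6 had an unadjusted p under 0.05 in PWS-cr (7.59%, against 2.21% of all genes), of which 3 were of the same sign. Their median absolute effect was 1.04 in PWS-IC and 0.0959 in PWS-cr, where the median over all genes tested was 0.0644. Across all 23539 genes outside the interval, the effects of the models had a Pearson r of −0.03 and a Spearman rho of 0.02 (across genes, which are not independent replicates).

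Red cell genes were among those called in PWS-IC without a called difference. Of 14 erythroid genes 4 were called higher in PWS-IC (0.467% of all genes were called there, in either direction) and 0 in PWS-cr or in the difference, with a median difference of 0.65. *Hbb-bs*, the adult beta globin, had a PWS-IC effect of 1.24 (adjusted p = 0.0139) and a PWS-cr effect of 0.14, a difference of 1.10 with an adjusted p of 0.364. The summed level of the 14 genes was 510 to 766 CPM in PWS-IC and 212 to 400 CPM in their wild-type littermates, and 163 to 212 CPM in PWS-cr and 166 to 183 CPM in theirs. The part of red cell RNA in the other PWS-IC calls was not tested.

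Genes that the study names from its own sequencing were picked on these samples and give no independent evidence. Of them *Mafa*, a transcription factor known from insulin-producing cells, had a PWS-IC effect of −0.15 (SE 0.355), a PWS-cr effect of 1.37 (SE 0.331) and a difference of −1.52 (SE 0.489, adjusted p = 0.481) that was not called. It stood at 7.59, 6.13 and 4.56 CPM in PWS-IC, against 8.12, 2.18, 8.98 and 7.64 CPM, and at 4.63 to 9.30 CPM (median 6.21) in PWS-cr, against 2.36, 1.90, 4.17, 2.50 and 3.77 CPM. The PWS-cr libraries lay above all of their wild types, and the PWS-IC libraries overlapped theirs. *Igf1*, a growth factor, had a difference of −0.50 (SE 0.225, adjusted p = 0.602).

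Markers of other tissues that a dissected newborn brain can carry differed between libraries of all groups. The summed level of 17 Hox genes, which mark caudal hindbrain and spinal cord, was 19.7 to 84.9 CPM in PWS-IC and 3.06 to 75.0 CPM in their wild-type littermates, and 0.964 to 99.0 CPM in PWS-cr and 1.58 to 34.3 CPM in theirs, and the median difference of these genes was −1.71 with 0 called. Meningeal and fibroblast genes had a median difference of −0.36, muscle and cartilage genes of −0.33, choroid plexus genes of 0.00, microglial genes of −0.17 and endothelial genes of −0.00, and 0 genes of these lists were called. Myelin and oligodendrocyte genes had a median of −0.42 over 25 genes with 0 called, serotonin system genes of −0.21 over 19, hypothalamic neuropeptides of 0.21 over 17, GABA-A receptor subunits of −0.11 over 16, and imprinted genes of other loci of −0.03 over 47. The medians of the immediate early (−0.03), hypoxia responsive (0.05), insulin and insulin-like growth factor (−0.08), prohormone processing (−0.06), mitochondrially encoded (0.05), olfactory bulb (−0.07), astrocyte (−0.19), dividing cell (0.06), pituitary (0.27) and eye (0.18) lists also came with 0 called differences. Of the 17 tested insulin and insulin-like growth factor genes, 1 was called higher in PWS-IC (0.467% of all genes were called there, in either direction). Some lists leaned to one side without calls. A positive difference was held by 3 of 25 myelin, 5 of 16 astrocyte, 0 of 16 microglial and 1 of 17 meningeal genes, and by 14 of 20 dividing cell genes. At an unadjusted p under 0.05 were 7 myelin and 7 astrocyte genes (8.16% of all genes), and 0 dividing cell genes. Genes of a list are not independent replicates. Neuronal markers summed to 8745 to 9779 CPM in PWS-IC and 8703 to 9149 CPM in their wild-type littermates, and to 8439 to 9109 CPM in PWS-cr and 7876 to 9019 CPM in theirs, with a median difference of −0.02. In whole-brain RNA fewer cells of a type and less RNA per cell cannot be told apart, and the part of these tissues in the calls above was not tested.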

How the data were processed

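The authors aligned paired, unstranded reads of polyadenylated RNA to mm10 and deposited 1 table per series of raw counts per gene, and the submitters' processing notes name STAR, featureCounts, DESeq2 and kallisto without versions. Reads with several equal matches were kept in random order. Another 60 per-sample columns (counts scaled by size factors, FPKM, TPM) and the columns of the authors' own comparisons (fold changes and p-values) were not used. The tables were joined on the gene identifier into 55406 genes.

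A gene entered the tests with a count of 10 or more in 4 or more of the 18 libraries (23574 did). Counts were scaled by TMM and tested with edgeR 4.0.16 in R 4.3.3 by the quasi-likelihood test, with litter as a term and a separate genotype effect for each series, and p-values were adjusted over all genes by the Benjamini-Hochberg method, with a threshold of 0.05. Standard errors were taken from the fold change and its F statistic, and 95% intervals from 10 residual plus 5.668 prior degrees of freedom. Intervals on pooled counts and floors of 3 counts cover counting error only. The fit was checked on simulated counts with changes in PWS-IC alone. They held no effect of litter, series or sex and the same spread for every gene, so the check does not cover those features of the data.

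The genes named in the text were the measured genes of the imprinted domain lists, those called in both models or in PWS-cr, those called in the difference outside the interval, genes the study names, and up to 4 members by p-value of each list with a called member, and not all of them are reported here. Genes named beyond that rule were picked after their values were seen. The members, the lists and the rule were chosen with earlier results of these data known. Alternatives were DESeq2 1.42.0, another scaling, other filters on low counts, series in place of litter, sex as a shared term, the robust option, all 20 libraries, each series alone, and leaving out each library. Positions are those of mm10, and promoter sequences and their starts come from RefSeq on GRCm38.p6, where 5 of 5 genes matched.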

Additional observations from a re-analysis of the deposited data

Results flagged for a closer look

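Of 120 gene and group pairs examined, 5 held a library far from the rest of its group, where chance gives about 1 in 20. In PWS-cr, 2_2_Cr had 2.83 CPM of *Peg12* (others 3.42 to 3.76), 0.0187 CPM of *Gm44831* (others 0) and 0.524 CPM of *Cd300lg* (others 0.129 to 0.256). In the wild types of that series, 3_6_Cr had 42.7 CPM of *A230057D06Rik* (others 49.5 to 51.1) and 3_1_Cr had 7.19 CPM of *Atp10a* (others 8.12 to 8.36). The library labelled 1_3_IC, which entered no comparison, had 369.2 CPM of *Snrpn* against 241.2 to 281.9 CPM in the wild types of its series.

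The effects of the models differed by the test of the difference itself for 42 genes, and *Snrpn* is listed with them as a description. On the log2 scale, PWS-IC minus PWS-cr, the coding genes and host transcript of the domain had −5.39 (*Snrpn*, chosen with the libraries), −1.43 (*Snhg14*), −5.76 (*Ndn*), −4.31 (*Magel2*), −4.51 (*Mkrn3*), −4.00 (*Peg12*) and −2.68 (*Gm38393*). Other transcripts of the interval had 7.08 (*Gm44831*), −6.88 (*A230006K03Rik*), −5.19 (*A330076H08Rik*), −7.10 (*B230209E15Rik*), −5.02 (*A230057D06Rik*), −5.99 (*Gm44562*), −5.35 (*Gm44559*), −4.21 (*A230103L15Rik*), −6.99 (*Gm44644*), −5.53 (*Gm44560*), −4.51 (*Gm9801*), −3.60 (*Gm44830*), −5.44 (*Gm38451*), −3.57 (*9330162G02Rik*) and −4.01 (*Gm32061*).

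Small RNA genes and pseudogenes of the interval had −4.62 (*Gm24966*), −4.13 (*Gm26498*), −6.88 (*Gm24983*), −3.98 (*Gm23873*), −4.75 (*Gm3257*), −7.68 (*Gm3198*) and −6.43 (*Gm7394*), and *Gm44643* had −7.62. The fitted sizes of *Gm44831*, *Gm44643*, *Gm24983*, *Gm3198* and *Gm7394* depend on the fit's prior count and are no bounds. Outside the interval the values were 4.46 (*Rps15a-ps7*), 3.46 (*Rps15a-ps6*), 1.32 (*Gm44645*), −3.99 (*Gm44742*), −0.94 (*4632427E13Rik*), 1.76 (*Gm44907*), 1.23 (*Gm45847*), 1.39 (*Cabp4*), 0.66 (*Per1*), 2.12 (*B230206I08Rik*), 1.85 (*Cd300lg*), −2.02 (*Ccl28*) and −2.48 (*F630028O10Rik*).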

How the results depend on the processing

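The 110 PWS-IC calls, 6 PWS-cr calls, 43 called differences, 4 genes with opposite effects and 13 differences outside the interval changed as follows. DESeq2 called 424 genes in PWS-IC and 61 differences, 33 of them outside the interval, and shared 40 of the 43 differences. With no filter on low counts there were 1017 PWS-IC calls, 175 PWS-cr calls, 477 differences, 26 opposite genes and 440 differences outside the interval, and with at least 10 counts in every library 3 PWS-cr calls, 21 differences, 2 opposite genes and 7 outside. With series in place of litter 23 differences lay outside the interval, and with sex as a shared term 7 did, with 59 PWS-IC calls. These 2 settings shared 39 and 32 of the 43 differences. Outside the interval the sex term lost *Gm44907*, *Gm45847*, *Cabp4*, *Per1*, *B230206I08Rik*, *Cd300lg*, *Ccl28* and *F630028O10Rik*, so the 7 are not all among the 13. With all 20 libraries as labelled 1 gene was called in PWS-IC and 0 in PWS-cr, in the difference, in opposite directions or outside. Fitted alone, the PWS-IC series gave 53 calls and the PWS-cr series 3. Leaving out 1 library gave 49 to 243 PWS-IC calls, 3 to 7 PWS-cr calls, 35 to 52 differences, 1 to 4 opposite genes and 8 to 22 differences outside the interval. PWS-IC calls moved most without 1_5_IC (243), 4_4_IC (204), 1_10_IC (49), 4_3_IC (66), 4_5_IC (66) and 1_1_IC (68), and PWS-cr calls fell to 3, with 1 opposite gene, without 1_3_Cr, 3_5_Cr or 4_3_Cr. Differences outside the interval numbered 22 without 1_5_IC and 8 without 3_5_Cr. The cause of these changes was not tested. Among the 58 genes whose difference was followed, none that was called changed direction under the settings that gave a difference. No paired analysis was possible because pup numbers do not pair animals across groups, and litter is already a term of the model.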
